A study of Mus musculus with 6 samples.

Results

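Protein tyrosine phosphatases remove phosphate from tyrosine residues and so oppose the tyrosine kinases. The genes described here are the 36 of 24062 gene symbols in the deposited count table that are named as non-receptor (Ptpn) or receptor-type (Ptpr) phosphatases, together with Acp1, the low molecular weight tyrosine phosphatase. Ptprz1, Ptprs and Ptprf, which are receptors for chondroitin sulfate, were left out by that rule. Acp1 and Ptpn3 were set apart from the rest because their counts differed between the genotypes of this same comparison, so their genotype difference is given as a description. Where calls are counted over the family, those of the pair were fixed by that choice and support nothing.

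Auditory nerve of young adult mice was dissected out and its RNA sequenced in 3 libraries of Vcan knockout mice and 3 of wildtype mice, all labelled C57BL/6. Each library held the RNA of both cochleae of 1 mouse. Vcan encodes versican, a matrix proteoglycan that carries chondroitin sulfate chains, and the comparison asks how transcripts of the nerve differ where versican is deficient. The labels give no allele, targeted exon, driver or breeding scheme for the knockout, and elsewhere the wildtype animals are called C57BL/6J. Vcan itself stood at 5.44, 2.70 and 2.88 CPM (read counts scaled to library size) in the knockout libraries, against 8.36, 9.61 and 7.32 CPM in the wildtype libraries. All knockout libraries lay below all wildtype libraries and none was near 0, with a log2 fold change of −1.20 (SE 0.32), an edgeR adjusted p of 0.558 and a DESeq2 adjusted p of 0.0327. Which exons the reads cover is not known here, so this checks the labels only in part. Of the marker lists for the labelled tissue, the summed level of 7 neuron genes was 6615 to 7180 CPM in knockout and 3825 to 7631 CPM in wildtype nerve, and that of 5 Schwann cell genes was 4366 to 6375 CPM in knockout and 4073 to 6593 CPM in wildtype nerve.

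The classical phosphatases share a catalytic loop in which a cysteine attacks the phosphate and an arginine binds it. Receptor types carry extracellular domains that bind neighbouring cells or matrix, while non-receptor types are sorted by adaptor domains such as SH2, FERM or PDZ domains. Acp1 has an unrelated fold that holds the same arrangement of a cysteine and an arginine, and its known substrates include receptor tyrosine kinases, among them Eph receptors. Ptpn3 (PTPH1) joins a FERM domain, found in proteins that link membrane and cytoskeleton, to a PDZ domain and a phosphatase domain, and Ptpn4 is its closest relative. In nerve, Ptpn11 (SHP2) acts downstream of neuregulin and neurotrophin receptors, Ptpn5 (STEP) is a neuronal phosphatase of MAP kinases and glutamate receptors, and Ptprq is a protein of the hair bundle.

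The catalytic loop is shown because that of Acp1 differs from those printed beside it. The coding bases for 9 codons around it, from the GENCODE vM21 transcripts, are printed in the sense direction with the cysteine and the arginine codon in capitals.
Acp1: gtgTGTctcggtaacatttgcCGGtca
Ptpn3: cacTGCagtgctggaataggtCGGaca
Ptpn4: catTGCagtgctggaattggaAGGact
Ptpn11: cacTGCagcgctgggattggcCGGaca
Ptprd: cacTGCagtgctggtgttggcAGAact
Ptprn: cacTGCagtgacggtgcagggAGGaca
In Acp1 the cysteine is encoded by codon 13 of 158, near the start of a short protein, while in Ptpn3 it is encoded by codon 842 of 913. Loops of the Ptpn and Ptpr members were searched for with a histidine codon just before the cysteine, while Acp1 was searched without that demand. Such a loop was found in 34 of the 35 Ptpn and Ptpr members, and 7 of them held 2. The histidine was thus set by the search, and a member without a find was not examined further. In Acp1 a valine codon takes that place.

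Acp1 transcripts in knockout nerve were at 0.339 times the wildtype level. Acp1 (gene identifier 11431, chromosome 12, 30893326 to 30911619, minus strand, GRCm38) stood at 25.7, 22.2 and 22.45 CPM in the knockout libraries, against 64.2, 76.2 and 67.0 CPM in the wildtype libraries. The groups were far apart, and the highest knockout library lay below the lowest wildtype library. The means were 23.5 ± 1.98 CPM in knockout and 69.1 ± 6.25 CPM in wildtype nerve (SD, n = 3 each), a log2 fold change of −1.56 (SE 0.14) of knockout over wildtype. The spread between libraries within a group was 0.122 on the log2 scale. Acp1 was chosen on this same difference, so its size beside that spread is a description.

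Ptpn3 showed a difference of nearly the same size. Ptpn3 (gene identifier 545622, chromosome 4, 57190841 to 57339040, minus strand, GRCm38) stood at 20.5, 16.5 and 18.4 CPM in the knockout libraries, against 54.6, 48.2 and 55.5 CPM in the wildtype libraries. All 3 knockout libraries again lay below all 3 wildtype libraries. The means were 18.5 ± 2.04 CPM in knockout and 52.7 ± 4.0 CPM in wildtype nerve (SD, n = 3 each), with a log2 fold change of −1.51 (SE 0.14) and a ratio of means of 0.350. Both genes were counted at 1520 reads or more in every library, so counting error was small beside the spread between animals. In bulk tissue, fewer cells of a type and less RNA per cell cannot be told apart.

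**Figure D1:**
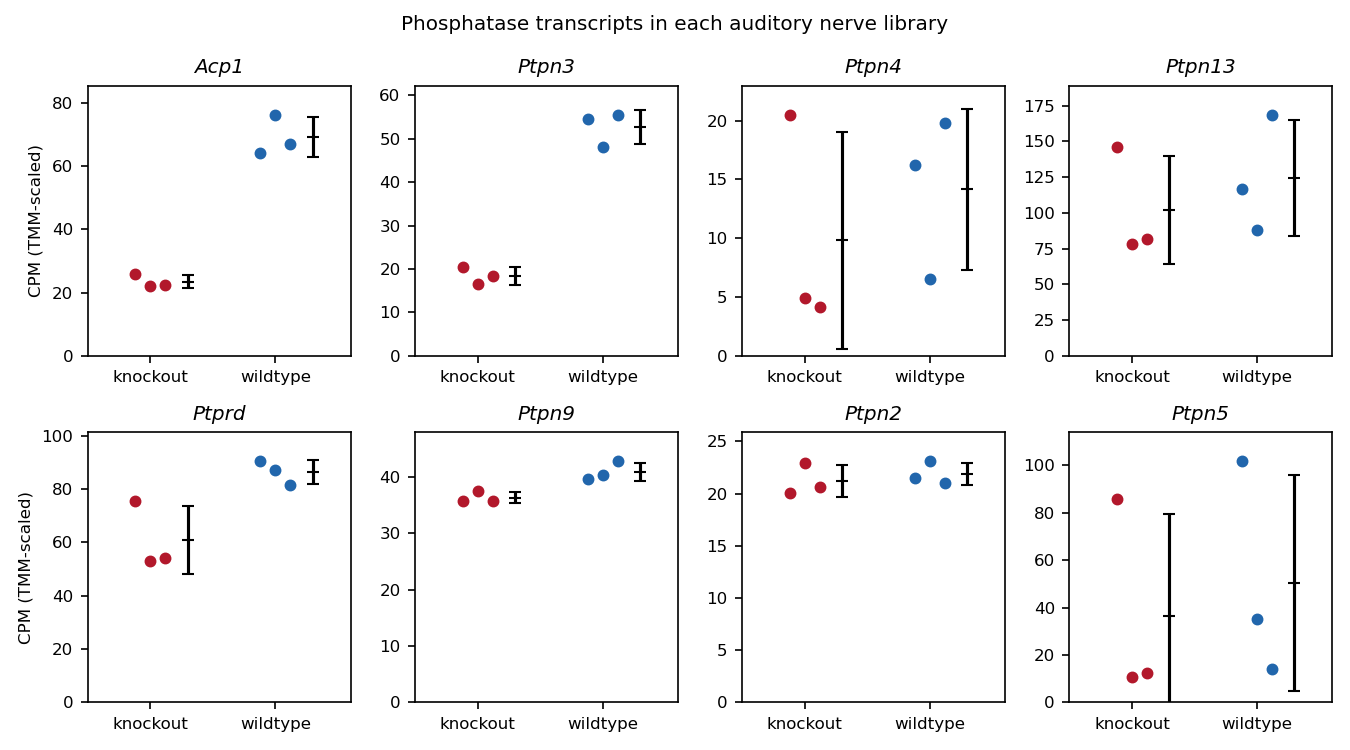
Levels of 8 phosphatases in each library, in CPM scaled by library size, with knockout libraries in red on the left and wildtype libraries in blue on the right, and the mean and SD of each group (n = 3) as black bars. Acp1 and Ptpn3 lie far lower in all knockout libraries, Ptprd and Ptpn9 separate narrowly, Ptpn2 is level, and Ptpn4, Ptpn13 and Ptpn5 vary within both groups.

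None of the genes tested around Acp1 and Ptpn3 passed the threshold. Sh3yl1 begins 49 bases from the start of Acp1 and runs the other way. Its product binds phosphoinositides, and it stood at 6.68 ± 0.785 CPM in knockout and 7.38 ± 0.674 CPM in wildtype nerve (SD, n = 3 each). Its log2 fold change was −0.145 (SE 0.19), against −1.56 for Acp1. Within 500 kb of Acp1 5 genes were tested, with log2 fold changes of −0.32 to 0.08 and none past the threshold (edgeR, Benjamini-Hochberg adjusted over all genes, lowest adjusted p = 0.816). Tmem18, the lowest of them, averaged 43.4 ± 0.682 CPM in knockout and 54.0 ± 2.17 CPM in wildtype nerve. Within 500 kb of Ptpn3 7 genes were tested, all on the side of the lower coordinates, with log2 fold changes of −0.37 to 0.30 and none past the threshold (edgeR, lowest adjusted p = 0.935). DESeq2 called none of these 12 genes. In edgeR 2 of them had an unadjusted p under 0.05, Tmem18 (0.0259) and Ctnnal1 (0.0452), against 5.2% of all genes tested. The same 2 did not overlap between genotypes, Tmem18 with knockout below and Ctnnal1 with knockout above, against 10.3% of all genes tested. Of 21 annotated genes around Acp1 and 23 around Ptpn3, only those tested are described.

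**Figure D2:**
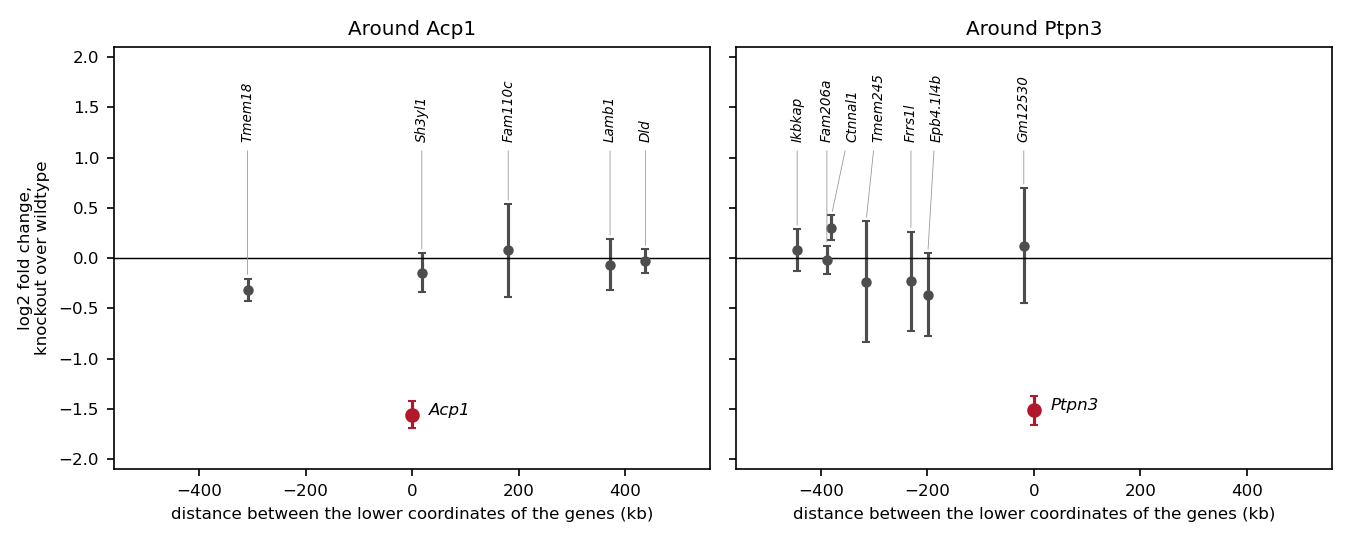
Log2 fold change of knockout over wildtype for the tested genes within 500 kb of Acp1 (left) and Ptpn3 (right), against the distance between the lower coordinates of the genes, with standard errors as bars. The 12 neighbours in grey lie between −0.37 and 0.30, while Acp1 at −1.56 and Ptpn3 at −1.51 are in red.

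The start regions of the pair are printed because the pair stands apart from the family and Sh3yl1 begins in the same stretch as Acp1. Each window of 300 bases around the start is read on the minus strand, and comes from RefSeq on GRCm38.p6, at chr12:30911563-30911862 for Acp1 and chr4:57301788-57302087 for Ptpn3. The Ptpn3 window lies inside the annotated span of the gene, so it belongs to a start within that span. Capitals mark matches on either strand to the GC box, spelled GGGCGG, to the CCAAT box, to the TATA box, spelled TATAAA, or to the cyclic AMP response element, spelled TGACGTCA. No matches overlapped.
Acp1: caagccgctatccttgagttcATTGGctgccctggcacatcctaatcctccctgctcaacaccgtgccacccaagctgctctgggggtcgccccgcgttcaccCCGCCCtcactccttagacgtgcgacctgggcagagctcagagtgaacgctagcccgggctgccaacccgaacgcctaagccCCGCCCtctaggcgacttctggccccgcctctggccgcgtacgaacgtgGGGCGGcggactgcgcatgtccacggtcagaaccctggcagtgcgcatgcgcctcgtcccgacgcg
Ptpn3: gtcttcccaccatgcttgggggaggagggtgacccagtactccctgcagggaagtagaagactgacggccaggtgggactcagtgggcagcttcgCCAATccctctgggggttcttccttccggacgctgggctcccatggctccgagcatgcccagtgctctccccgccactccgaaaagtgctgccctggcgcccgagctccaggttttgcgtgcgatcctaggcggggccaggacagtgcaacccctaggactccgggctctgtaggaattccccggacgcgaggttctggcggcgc
The Acp1 window shares 156 bases with that of Sh3yl1 on the other strand. It is 67.0% G or C with 29 CpG pairs, and the Ptpn3 window is 65.3% G or C with 18, against medians of 52.7% and 7 over 32851 start regions. Both windows held CCAAT, which 37.4% of all windows hold. The Acp1 window also held 3 GC boxes, found in 35.7% of all windows, and the Ptpn3 window held none. Neither window held the TATA box (13.6% of windows) or the cyclic AMP response element (1.79%). A match is a string of letters and not a measured site.

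How reads were assigned bears on Acp1 more than on Ptpn3. Of the 50-base stretches in the longest Acp1 transcript, 13.1% also occur in genes at 5 other loci, most in Gm1866 (9.08%). For Ptpn3 the share was 0%. The other loci were not analysed here. The sources used here do not say what was done with reads that fit more than 1 gene, so the level of Acp1 is uncertain to that extent. Fam150b overlaps 531 bases of Acp1 and stood at 0.0591 CPM in knockout and 0.0115 CPM in wildtype nerve. For most other members the shared part was 0% or close to it, except 5.41% for Ptprj and 2.35% for Ptpn18.

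No other member of the family passed the threshold. Of the 36 members 35 passed the filter on low counts, all but Ptprh, which had 1 to 9 reads in a library. Past the threshold over all genes were 2 of the 35, Acp1 and Ptpn3, both lower in knockout nerve, which is how they were chosen, while over all 16722 genes tested 0.138% were called (0.0718% lower and 0.0658% higher) at an adjusted p under 0.05 (edgeR). DESeq2 called 1.44% of the 17735 genes to which it gave an adjusted p. The authors' deposited table holds 1.34% under 0.05 of the 16952 genes with an adjusted p there. Both hold the same pair, read from the same counts. Among the other 33 members edgeR and DESeq2 called 0, and 2 had an unadjusted p under 0.05 in edgeR, Ptprv and Ptprd, against 5.2% of all genes. The log2 fold changes of these 33 ran from −0.53 to 1.98 with a median of −0.13, 23 below 0 and 10 above, and 29 of the 33 were smaller than 0.5 in size. That lean varied with the library left out. Without wildtype replicate 3 the split was 17 below and 16 above (median −0.014), and without wildtype replicate 1 it was 18 and 15. Without knockout replicate 2 it was 19 and 14 (median −0.016), and without knockout replicate 3 it was 20 and 13. The split was wider without knockout replicate 1, at 27 and 6 (median −0.195), and without wildtype replicate 2, at 25 and 8 (median −0.182). Over all genes tested the median was −0.01, with 8531 below 0 and 8161 above. A log2 fold change of −1 or lower was found for 3.57% of all genes and, of the members tested, for Acp1 and Ptpn3.

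Members also differed in how far libraries of a genotype lay apart. The log2 spread between libraries of a genotype had a median of 0.325 over these 33 members, against 0.256 over all genes. It was 0.122 for Acp1 and 0.135 for Ptpn3 (percentiles 12.7 and 16.1 among all genes tested). Ptpn9 and Ptpn2 varied still less, at 0.048 and 0.085, with log2 fold changes of −0.17 and −0.04. Acp1 and Ptpn3 were chosen on a genotype difference in these same libraries, which favours genes of low spread, so their spread is a description.

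**Figure D3:**
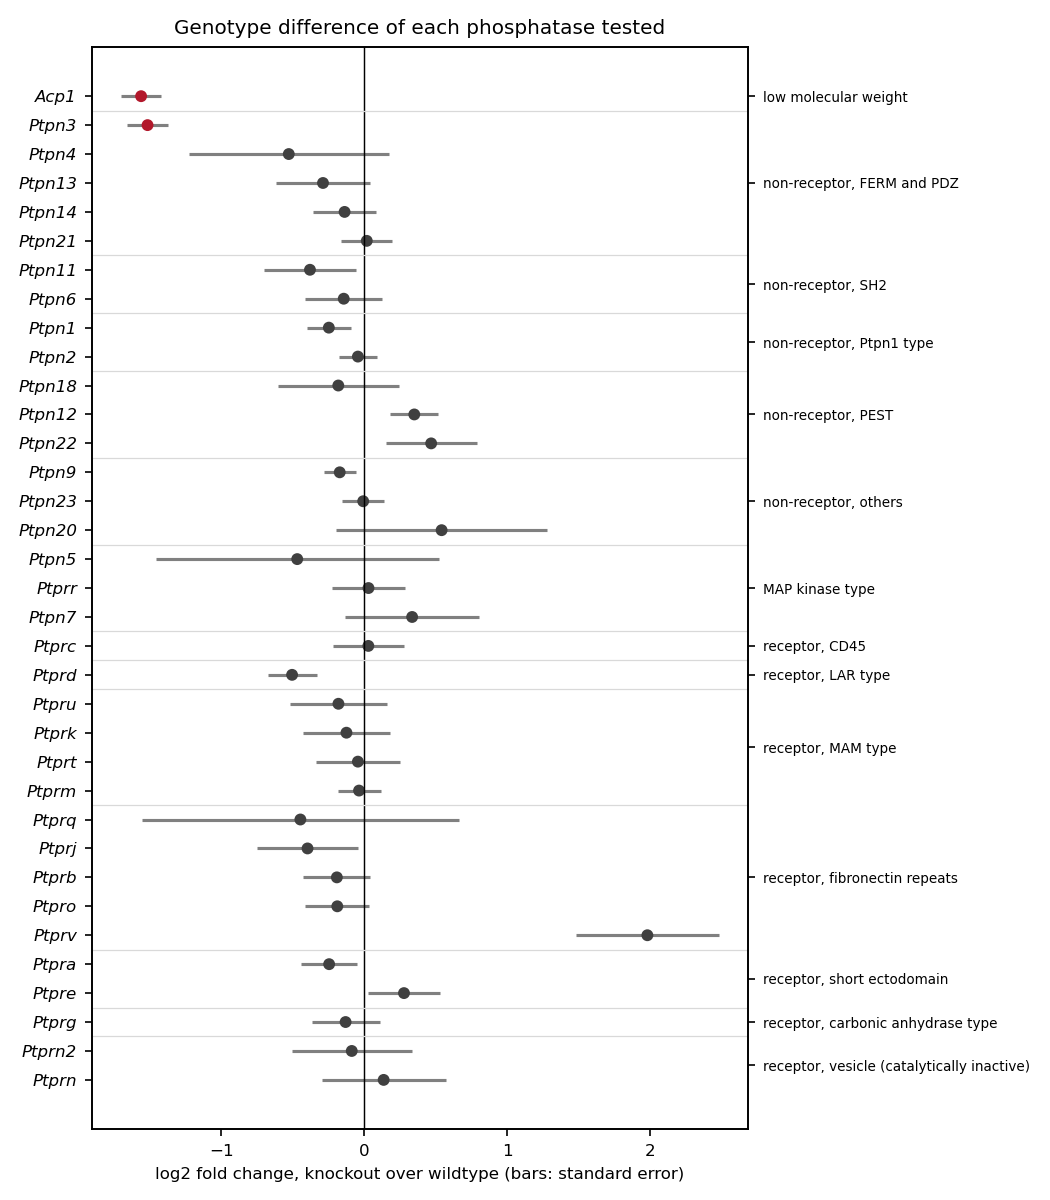
Log2 fold change of knockout over wildtype with its standard error for the 35 phosphatases tested, grouped by type on the right axis. Acp1 (−1.56) and Ptpn3 (−1.51), in red, are the lowest, Ptprv (1.98) is the highest, and the bars of most others reach or come near 0.

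Of the FERM and PDZ phosphatases, 4 beside Ptpn3 were tested and did not pass the threshold. Ptpn4, the closest relative of Ptpn3, was at 20.5, 4.92 and 4.14 CPM in the knockout libraries, against 16.2, 6.55 and 19.8 CPM in the wildtype libraries. The ranges overlap almost fully, and the libraries numbered 1 of both genotypes and wildtype replicate 3 were high. The log2 fold change of Ptpn4 was −0.53 (SE 0.70). Ptpn13, a very large member with several PDZ domains, was at 146, 78.4 and 81.8 CPM in knockout and 117, 88.3 and 168 CPM in wildtype libraries, and knockout replicate 1 and wildtype replicate 3 were its highest. Ptpn14 and Ptpn21, FERM phosphatases without a PDZ domain of which Ptpn14 is known to bind the Hippo effector YAP, had log2 fold changes of −0.14 (SE 0.22) and 0.02 (SE 0.18).

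The SH2 and PTP1B-like phosphatases did not pass the threshold. Ptpn11 was at 252, 194 and 193 CPM in knockout and 212, 195 and 423 CPM in wildtype libraries. Wildtype replicate 3 stood far above the other wildtype libraries, and the log2 fold change of −0.38 (SE 0.32) turned to 0.06 (SE 0.17) without it. Ptpn6 (SHP1), the relative of Ptpn11 found mostly in blood cells, averaged 9.18 ± 1.25 CPM in knockout and 10.1 ± 3.30 CPM in wildtype nerve (SD, n = 3 each). Ptpn2, which acts on Janus kinases and STAT proteins, was among the steadiest members, at 20.1, 22.9 and 20.6 CPM in knockout and 21.5, 23.1 and 21.02 CPM in wildtype libraries. Ptpn1 (PTP1B), which acts on the insulin receptor, averaged 30.05 ± 0.427 CPM in knockout and 35.7 ± 6.05 CPM in wildtype nerve (SD, n = 3 each).

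Of the PEST phosphatases, which act on cytoskeletal and immune signalling proteins, Ptpn12 was at 39.99, 51.3 and 56.0 CPM in knockout and 39.7, 41.7 and 34.2 CPM in wildtype libraries. The ranges overlap only through knockout replicate 1 and wildtype replicate 2, and the log2 fold change of 0.35 (SE 0.17) did not pass (edgeR adjusted p = 1.00). Ptpn22, a phosphatase of lymphocytes, averaged 2.98 ± 0.823 CPM in knockout and 2.16 ± 0.452 CPM in wildtype nerve, and Ptpn18 averaged 2.25 ± 0.799 CPM in knockout and 2.55 ± 1.18 CPM in wildtype nerve (SD, n = 3 each). Ptpn9, which carries a lipid-binding domain, was at 35.7, 37.4 and 35.75 CPM in knockout and 39.7, 40.2 and 42.7 CPM in wildtype libraries. Its groups did not overlap, as for 10.3% of all genes tested, and its log2 fold change was −0.17 (SE 0.11, edgeR adjusted p = 1.00). Ptpn23, a partner of the ESCRT sorting machinery, was at 73.3, 61.55 and 67.2 CPM in knockout and 78.2, 63.6 and 61.2 CPM in wildtype libraries. Ptpn20 had 3 to 15 reads in a library.

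Ptprd was the receptor with the clearest separation at a high level. Ptprd, a LAR-type receptor that organises synapses by binding Slitrk and interleukin-1 receptor-like proteins, was at 75.55, 53.2 and 54.0 CPM in knockout libraries, against 90.4, 87.2 and 81.5 CPM in wildtype libraries. The groups did not overlap, and knockout replicate 1 lay nearest to wildtype. The log2 fold change of −0.50 (SE 0.17) did not pass over all genes (edgeR adjusted p = 0.774, unadjusted p = 0.0222), and in the authors' deposited table its adjusted p was 0.473. No overlap with knockout below held for 4.93% of all genes tested and with knockout above for 5.41%, and among the 33 members other than Acp1 and Ptpn3 for 2 below (Ptprd and Ptpn9) and 1 above (Ptprv).

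Ptprv, a receptor known from osteoblasts and testis, was the highest in fold and nearly the lowest in level. It had 64, 84 and 32 reads in the knockout libraries, against 19, 14 and 13 reads in the wildtype libraries, with a log2 fold change of 1.98 (SE 0.50). It did not pass in edgeR (adjusted p = 0.467), nor in DESeq2 (adjusted p = 0.0505) or the authors' deposited table (adjusted p = 0.0550). Ptprv overlaps 738 bases of Ptpn7 on the other strand, and Ptpn7 had 60, 32 and 31 reads in knockout and 29, 33 and 40 reads in wildtype libraries. Whether strand was kept is not given in the sources used here, so reads in that overlap cannot be assigned to either gene. The summed level of 5 osteoblast and osteocyte markers was 158, 219 and 265 CPM in the knockout libraries and 143, 115 and 233 CPM in the wildtype libraries. These sums overlapped, and the markers differed in direction. By fold 3 were higher and 2 lower, from −0.97 for Bglap to 1.31 for Ibsp on the log2 scale, and none passed. The part of these cells in the Ptprv difference was not tested.

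The MAM-type receptors, which bind their own kind across cell contacts, did not pass the threshold. Ptprk was at 66.8, 50.9 and 52.8 CPM in knockout and 46.4, 46.1 and 93.2 CPM in wildtype libraries, and its log2 fold change of −0.12 (SE 0.30) turned to 0.29 (SE 0.16) without wildtype replicate 3. Ptpru, Ptprm and Ptprt had log2 fold changes of −0.18 (SE 0.34), −0.04 (SE 0.15) and −0.04 (SE 0.29). Ptprg, a receptor with a carbonic anhydrase-like domain that binds contactins, was at 62.7, 53.4 and 52.8 CPM in knockout and 55.3, 45.5 and 84.0 CPM in wildtype libraries, and it too was highest in wildtype replicate 3. Ptpra, which activates Src family kinases, was at 110, 80.2 and 81.3 CPM in knockout and 103, 90.1 and 129 CPM in wildtype libraries. Ptpre, its close relative, averaged 39.3 ± 6.44 CPM in knockout and 32.4 ± 9.84 CPM in wildtype nerve (SD, n = 3 each).

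Receptors known from blood and vessels were set beside markers of those cells. Ptprc (CD45), the phosphatase of white blood cells, was at 9.18, 7.55 and 5.19 CPM in knockout and 7.16, 6.79 and 7.53 CPM in wildtype libraries, with a log2 fold change of 0.03 (SE 0.25). Of 6 macrophage markers measured, 5 had lower means in knockout nerve and none passed. Their summed level was 132 to 161 CPM in knockout against 186 to 195.5 CPM in wildtype nerve, without overlap. By gene 3 of the 6 (Csf1r, C1qb and C1qc) lay lower in all knockout libraries, against 4.93% of all genes tested, and the others overlapped. Ptprb, the phosphatase of vascular endothelium, was at 67.2, 42.1 and 44.3 CPM in knockout and 60.0, 46.7 and 68.5 CPM in wildtype libraries. The sum of 5 endothelial markers was 182, 128 and 128 CPM in the same knockout libraries and 168, 145 and 166 CPM in the wildtype libraries, and both were highest in knockout replicate 1 and wildtype replicates 1 and 3. The part of vessels or macrophages in these levels was not tested. Ptprj and Ptpro, of the same receptor type, had log2 fold changes of −0.40 (SE 0.35) and −0.19 (SE 0.225).

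Ptpn5 and Ptprq varied most within groups. Ptpn5 was at 86.0, 10.7 and 12.6 CPM in knockout and 102, 35.2 and 14.3 CPM in wildtype libraries. Ptprq was at 41.5, 3.06 and 3.58 CPM in knockout and 43.1, 7.88 and 14.6 CPM in wildtype libraries. For both genes the libraries numbered 1 were the highest of their genotype, and the log2 spread within groups was 1.52 for Ptpn5 and 1.65 for Ptprq, percentiles 99.3 and 99.5 among all genes. The sum of 4 hair cell markers was 103, 62.2 and 79.5 CPM in knockout and 66.85, 56.9 and 153 CPM in wildtype libraries. Among knockout libraries this sum and Ptprq were both highest in replicate 1. Among wildtype libraries both were lowest in replicate 2, while the sum was highest in replicate 3 and Ptprq in replicate 1. The part of hair cells in the Ptprq levels was not tested. The log2 fold change of Ptpn5 was −0.47 (SE 0.99) with all libraries, −2.11 without knockout replicate 1 and 0.56 without wildtype replicate 1, so no direction can be given for it. Ptprn and Ptprn2 encode vesicle proteins of neurons and endocrine cells that are known to lack phosphatase activity. Ptprn was at 84.0, 74.1 and 57.01 CPM in knockout and 101, 67.6 and 27.6 CPM in wildtype libraries, lowest in wildtype replicate 3, the library with the lowest neuron marker sum (3825 CPM). Without that library its log2 fold change of 0.14 (SE 0.43) turned to −0.24. Ptprr, a phosphatase of MAP kinases, averaged 14.4 ± 3.69 CPM in knockout and 14.1 ± 3.10 CPM in wildtype nerve (SD, n = 3 each).

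**Figure D4:**
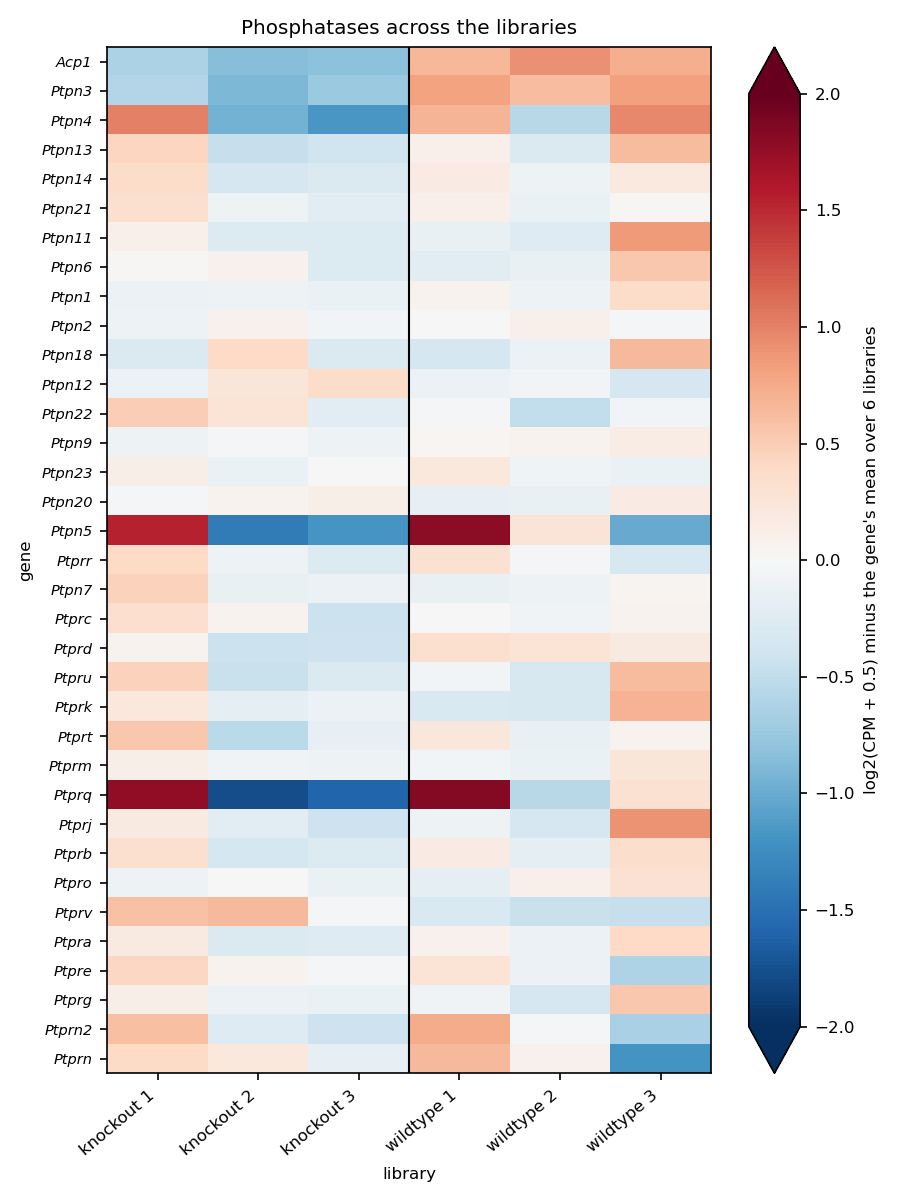
Level of each of the 35 phosphatases in each library as log2(CPM + 0.5) minus the mean of the gene over the 6 libraries, with knockout libraries left of the line and wildtype libraries right of it. Acp1 and Ptpn3 change colour at the line, while Ptpn5 and Ptprq are high in both libraries numbered 1 and many members are high in wildtype replicate 3.

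Single libraries held the highest or lowest level of many members, and the same count over all genes was not made. Of the 35 members tested, 16 were highest in wildtype replicate 3 and 9 in knockout replicate 1, while 12 were lowest in knockout replicate 2, 7 in knockout replicate 3 and 7 in wildtype replicate 3, which was thus extreme in both directions. Over all genes the correlation of wildtype replicate 3 with each other library was 0.958 to 0.965, below the best partner of every other library. Library totals were 74530860 to 92513887 counts in knockout and 82860217 to 88694031 counts in wildtype nerve. Acp1 was lowest in knockout replicate 2 and highest in wildtype replicate 2, and Ptpn3 was lowest in knockout replicate 2 and highest in wildtype replicate 3. Without each library in turn their log2 fold changes stayed between −1.63 and −1.48 for Acp1 and between −1.60 and −1.44 for Ptpn3. Their groups do not overlap, so leaving out 1 library could not turn the sign. The count of members past the threshold, which the choice of the pair set with all libraries, was 2 without knockout replicate 1. In that fit 9 members had an unadjusted p under 0.05 (edgeR), 7 of them outside the pair. Without each of the other 5 libraries the count past the threshold was 0. In those 5 fits 3 or 4 members had an unadjusted p under 0.05 (edgeR), of which 1 or 2 were outside the pair. The share of all genes with such a p was not counted in the fits that leave out a library. In the 5 fits without a member called, 3 to 7 genes of the whole table were called, against 23 with all libraries.

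Markers of other cell types that the dissected tissue could hold lay apart between genotypes for some lists and overlapped for others. The summed level of 5 astrocyte markers was 382 to 595.5 CPM in knockout and 622 to 1116 CPM in wildtype nerve. That of 4 fibroblast markers was 847 to 997 CPM in knockout and 1159 to 1221 CPM in wildtype nerve, and neither sum overlapped. By gene, 2 of the 5 astrocyte and 2 of the 4 fibroblast markers lay lower in all knockout libraries, against 4.93% of all genes tested. The others of both lists overlapped between genotypes. The sum of 7 neutrophil and marrow precursor markers was 72.4 to 142 CPM in knockout and 17.96 to 52.0 CPM in wildtype nerve, but each of the 7 genes overlapped between genotypes. Ltf made up 121 of the 124.5 CPM in knockout replicate 1, and the other 6 were lowest in that library. The sum of 5 oligodendrocyte markers was 157 to 209 CPM in knockout and 199 to 423 CPM in wildtype nerve, and the sum of 8 lymphocyte markers was 4.35 to 6.79 CPM in knockout and 4.10 to 4.95 CPM in wildtype nerve, and both sums overlapped. No marker passed in edgeR, and DESeq2 called only Aqp4 of the astrocyte list. The sum of 6 erythroid markers was 3.98 to 6.34 CPM in knockout and 6.22 to 25.7 CPM in wildtype nerve, with Hba-a2, Hbb-bs and Hbb-bt at 0 in all libraries, and that of 4 osteoclast markers was 21.6 to 24.8 CPM in knockout and 17.0 to 27.1 CPM in wildtype nerve. These sums overlapped too. The part of these cells in the Acp1 and Ptpn3 differences was not tested.

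Per kb of the longest transcript, Acp1 was among the most abundant phosphatases of wildtype nerve and in the middle of the family in knockout nerve. Ptpn11 came first in both genotypes, at 28.6 ± 4.56 CPM per kb in knockout and 37.2 ± 17.1 CPM per kb in wildtype nerve (SD, n = 3 each). Acp1 was at 7.65 ± 0.646 CPM per kb in knockout, place 14 of 36, and at 22.55 ± 2.04 CPM per kb in wildtype nerve, place 2 (SD, n = 3 each). In wildtype nerve the level per kb of Acp1 did not differ beyond the spread from that of Ptpra, at 20.2 ± 3.73, or Ptprn, at 18.4 ± 10.3. Ptpn3 was at 2.90 ± 0.321 CPM per kb in knockout, place 25, and at 8.28 ± 0.628 CPM per kb in wildtype nerve, place 16, beside Ptpn1 (8.31 ± 1.41) and Ptpn2 (8.20 ± 0.404). Ptpn4 was at 0.906 ± 0.848 CPM per kb in knockout and 1.30 ± 0.629 CPM per kb in wildtype nerve, below Ptpn3 in both. The lowest members were Ptpn7, Ptprv, Ptpn20 and Ptprh, at no more than 0.133 CPM per kb in either genotype.

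**Figure D5:**
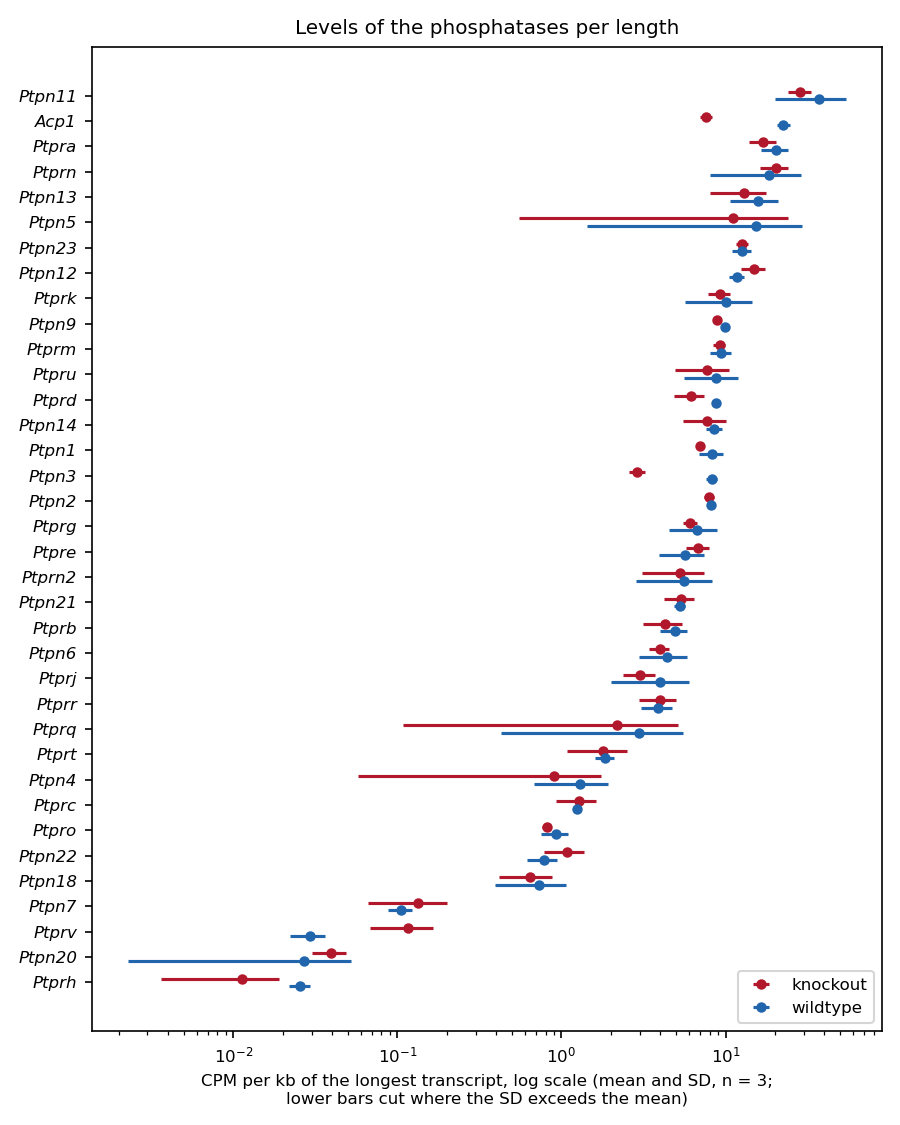
Mean level of the 36 phosphatases in CPM per kb of the longest transcript on a log axis, with SD bars (n = 3), ordered by the level in wildtype nerve, with knockout in red above wildtype in blue. Acp1 and Ptpn3 show the widest gap between genotypes among members above 1 CPM per kb, with Acp1 at 7.65 in knockout and 22.55 in wildtype nerve.

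Other phosphatases were read from the same table. Ptp4a2, a membrane-bound phosphatase, averaged 241 ± 23.7 CPM in knockout and 236 ± 7.06 CPM in wildtype nerve (SD, n = 3 each). None of 5 other acid phosphatase genes passed, and Acp2, a lysosomal enzyme unrelated to Acp1 in fold, was at 74.6 ± 10.1 CPM in knockout and 75.45 ± 5.07 CPM in wildtype nerve. None of 22 dual-specificity phosphatases passed, with 15 lower and 7 higher in fold and a median log2 fold change of −0.19. Over all genes tested 8531 were lower and 8161 higher. Dusp15 averaged 182 ± 22.5 CPM in knockout and 180 ± 44.1 CPM in wildtype nerve.

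The kinases that these phosphatases oppose were tested on the same table. None of 22 Eph receptors and ephrins passed in edgeR or DESeq2, with a median log2 fold change of −0.11, and Epha4, a receptor of axon guidance, was at 86.25 ± 6.97 CPM in knockout and 77.7 ± 11.3 CPM in wildtype nerve (SD, n = 3 each). Of 9 Src family kinases and Csk none passed, and Fyn was at 125 ± 6.98 CPM in knockout and 108 ± 27.9 CPM in wildtype nerve. Of 18 growth factor receptor kinases tested none passed in edgeR and 1 in DESeq2, Kit, the receptor for stem cell factor, with a log2 fold change of −1.14 (edgeR adjusted p = 0.0665, DESeq2 adjusted p = 2.67e-07). Their median log2 fold change was −0.32, with 16 lower and 2 higher, against 8531 lower and 8161 higher over all genes tested. The sum over the 19 genes listed was 1596, 1242 and 1216 CPM in knockout and 1542, 1356 and 1920 CPM in wildtype libraries. The sums overlapped between genotypes and the highest was that of wildtype replicate 3. Fgfr1 was at 295 ± 12.5 CPM in knockout and 327 ± 44.9 CPM in wildtype nerve. None of 11 adaptors and partners of the SH2 phosphatases passed (median −0.07), nor of 11 Janus kinases and STAT proteins (median −0.06), nor of 15 ligands and liprins of the receptor phosphatases (median 0.06). Gab1, the docking protein that recruits Ptpn11, was at 114 ± 8.87 CPM in knockout and 127 ± 9.01 CPM in wildtype nerve, and Jak1, a substrate of Ptpn2, was at 244 ± 2.45 CPM in knockout and 223 ± 21.4 CPM in wildtype nerve (SD, n = 3 each).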

How the data were processed

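Auditory nerve RNA of 6 mice was made into TruSeq libraries, per the labels' protocols. Per the submitters' processing notes the build is mm10 and HTSeq and DESeq2 were used, with no versions or roles. No aligner, strand setting or rule for multi-mapping reads is named in the sources used here. The per-sample values are raw counts per gene deposited by the authors. The deposited table also holds the authors' comparison, per the file headers a mean normalised signal, a log2 fold change, a test score and p-values before and after adjustment, quoted only where the authors' table is named.

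There were 24067 rows, and 5 duplicates with identical counts were joined. No pair of libraries agreed within sampling noise (lowest chi-square per degree of freedom 41.0). In R 4.3.3, edgeR 4.0.16 kept 16722 genes with filterByExpr, scaled libraries by TMM (factors 0.964 to 1.02) and ran robust quasi-likelihood F tests of knockout over wildtype (2-sided, Benjamini-Hochberg over all genes, threshold 0.05). The pipeline was tested on simulated data. Standard errors were taken as the size of the log2 fold change over the root of F. CPM are TMM-scaled, spreads and library correlations use log2(CPM + 0.5), and levels per kb use the longest GENCODE vM21 transcript. DESeq2 1.42.0, other scalings and filters, a replicate block and fits without each library were alternatives. Places and start regions come from RefSeq GRCm38.p6, the assembly behind mm10 (36 members placed, 30 with a start region). Loops were found with Biopython 1.88.

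The p-values measure the spread between 3 animals a group. Titles number the knockout libraries 1 to 3 and are followed here, while the file headers number them 1, 3 and 4. Members and lists were chosen with earlier results of these data known. Values were given in every sample for Acp1, Ptpn3, the most abundant member per length of each type, and members of at least 1 CPM whose groups did not overlap, and others by mean. From each list the members past the threshold or the 2 of the highest mean were eligible. Ptpn4, Ptprq, Ptprv, Kit and Ctnnal1 were named after their values were seen. The counts over 1 list of related phosphatases are not reported here.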

Additional observations from a re-analysis of the deposited data

How the results depend on the processing

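The log2 fold changes of Acp1 and Ptpn3 stayed negative under all 14 alternatives, at −1.69 to −1.48 for Acp1 and −1.60 to −1.44 for Ptpn3. The pair was chosen on these counts and its groups do not overlap, so the kept sign was set beforehand and supports nothing. Acp1 moved by more than the spread, to −1.69, with both libraries numbered 1 left out, an alternative chosen after seeing the data. The count of members past the threshold was 2 with RLE scaling, library totals alone, no filter, a filter of 1 CPM in 3 libraries, DESeq2 and edgeR without robust estimation. It was 0 with the replicate block and 0 with both libraries numbered 1 left out, and 0 to 2 without each library in turn. Members with an unadjusted p under 0.05 (edgeR) numbered 5 with the block, 3 of them outside the pair. With both libraries numbered 1 left out they numbered 6, with 4 outside the pair. The share of all genes with such a p was not counted in either fit, so these counts have no background to be read against. Over all genes 256 passed in DESeq2, 3 with the replicate block, 1 with both libraries numbered 1 left out and 3 to 14 without each library in turn, against 23. Fewer samples enter the last fits, and the causes of the other changes were not tested. The median of the other 33 members ranged from −0.285 to −0.014 over the alternatives, and 17 to 27 of them were below 0 when each library was left out, against 23 with all libraries.

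None of the 14 other members named by level or separation passed in any of 196 fits, and 13 of these fits turned the sign. Ptpn23 turned to 0.007 with library totals alone, 0.034 with both libraries numbered 1 left out, and ranged from −0.082 to 0.109 without each library. Ptprc turned to −0.007 with the replicate block and −0.18 with both libraries numbered 1 left out, and ranged from −0.17 to 0.22 without each library. Without wildtype replicate 3 the values turned to 0.059 for Ptpn11, 0.15 for Ptprg, 0.29 for Ptprk and −0.24 for Ptprn, and without wildtype replicate 1 to 0.56 for Ptpn5, where without each library they ranged from −0.577 to 0.059, −0.31 to 0.15, −0.30 to 0.29, −0.24 to 0.59 and −2.11 to 0.56. Deviations from the group means correlated at 0.478, 0.320 and −0.160 between libraries of the same number, for numbers 1, 2 and 3. Knockout replicates 1 and 2 correlated best with the wildtype library of their own number, and knockout replicate 3 with wildtype replicate 2. Deviations within a group are tied to each other, so these values cannot settle whether the numbers pair the samples. Members under 20 reads, Ptpn20 and Ptprh, are too shallow for small differences to be detectable.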
